A study of Mus musculus with 8 samples.

Results

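The genes described here encode 6 kinases of serine/arginine-rich (SR) splicing proteins: the CDC-like kinases Clk1, Clk2, Clk3 and Clk4 and the SR protein kinases Srpk1 and Srpk2. They were chosen by name. All 6 were present among the 57180 genes of the count and TPM tables, each identifier matched a single mouse symbol, and all 6 passed the filter on low counts that 15660 genes passed. The RNA came from freshly isolated mouse muscle stem cells, the Pax7-expressing progenitors that repair skeletal muscle, purified by cell sorting. The control group held 4 libraries titled WT (replicates 2, 5, 7 and 8). The other group, called RhoA het here, held 4 libraries (replicates 5, 6, 7 and 8) whose titles give RhoA het, whose genotype field gives RhoA knockdown, and whose series text gives a floxed allele of RhoA over an intact one, SC-RhoAfl/+. RhoA is a small GTPase that signals to the actin cytoskeleton, and the study asked what reduced RhoA activity does to expression and splicing. The labels used here name no Cre driver, age or treatment, and nothing in them says that the libraries came from separate animals, so p-values measure the spread between these libraries.

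SR proteins bind exons of pre-mRNA and help the spliceosome choose splice sites, and their activity and place in the cell depend on phosphorylation of the repeats that name them. SRPKs act largely in the cytoplasm, where their phosphorylation of SR proteins favours import into the nucleus. CLKs act in the nucleus, add phosphate to further serines and release SR proteins from nuclear speckles. Clk1 and Clk4 are also known for transcripts that keep introns and are held in the nucleus, so part of their RNA does not serve translation at once.

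The CLK paralogues share a signature near the end of the kinase domain that gave them the name LAMMER kinases. The coding bases of this stretch are shown because the counts rest on telling the paralogues apart. They are 51 bases of coding exon, read from GENCODE release 21 transcripts, with capitals where a base differs from Clk1. Positions count from the first base of the start codon, and the stretch begins at 1144 in Clk1, 1153 in Clk2, 1576 in Clk3 and 1141 in Clk4.
Clk1: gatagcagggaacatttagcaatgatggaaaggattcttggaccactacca
Clk2: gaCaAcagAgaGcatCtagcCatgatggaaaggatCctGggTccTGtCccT
Clk3: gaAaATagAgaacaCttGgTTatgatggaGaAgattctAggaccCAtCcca
Clk4: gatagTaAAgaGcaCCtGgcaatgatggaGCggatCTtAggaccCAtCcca
Clk2, Clk3 and Clk4 differed from Clk1 at 13, 14 and 15 of these bases. Over the whole coding sequence Clk1 and Clk4 were the closest CLK pair, identical at 74.6% of aligned bases with a longest shared run of 34 bases. Clk2 and Clk3 were identical at 71.2% with a longest run of 18 bases, and Srpk1 and Srpk2 at 69.4% with a longest run of 17. The kinases were therefore distinct in sequence over all but short runs. The read length is not given in the sources used here.

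On assembly mm39 the genes lie apart from each other. Clk1 (ENSMUSG00000026034.18) spans chromosome 1, 58449348 to 58463225, minus strand. Clk2 (ENSMUSG00000068917.13) spans chromosome 3, 89072102 to 89084228, plus strand. Clk3 (ENSMUSG00000032316.9) spans chromosome 9, 57657907 to 57673143, minus strand, and 1284 of its exonic bases (15.2%) overlap exons of Edc3 on the opposite strand. Clk4 (ENSMUSG00000020385.17) spans chromosome 11, 51152557 to 51172593, plus strand, with 59 exonic bases shared with a small unnamed gene that held at most 11 fragments. Srpk1 (ENSMUSG00000004865.17) spans chromosome 17, 28806622 to 28841683, minus strand. Srpk2 (ENSMUSG00000062604.12) spans chromosome 5, 23708262 to 23889615, minus strand, and shares 972 exonic bases (6.99%) with Kmt2e on the opposite strand. The counts use no strand and leave out fragments that overlap more than 1 gene, so the counts of Clk3 and Srpk2 miss fragments that fall there.

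Annotated retained introns and alternative ends add to the exons of these genes, which bears on every per-length level below. In release 21, 7 of 13 Clk1 transcripts and 7 of 14 Clk4 transcripts are annotated as retained introns, against 4 of 11 for Clk2, 4 of 9 for Clk3, 6 of 13 for Srpk1 and 3 of 10 for Srpk2. The merged exon length that the TPM values divide by was 8132 bases for Clk1, which is 4.53 times its coding transcript of 1796 bases (the release 21 transcript with the longest coding sequence). The same ratio was 2.51 for Clk2, 3.39 for Clk3, 2.97 for Clk4, 2.66 for Srpk1 and 2.14 for Srpk2. Where most RNA is spliced, TPM therefore understates Clk1 more than the other kinases. Counts are per gene, so retained and spliced forms were not separated.

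The libraries held 19138763 to 25606342 fragments assigned to genes. Rhoa averaged 134.2 ± 10.9 TPM in control and 116.5 ± 6.23 TPM in RhoA het (SD, n = 4 each), with the lowest control library (121 TPM) below the highest RhoA het library (125 TPM). The count covers the whole gene, so RNA of a recombined allele that keeps the other exons would be counted too. Muscle stem cell identity was checked with Pax7 (49.6 to 100.1 TPM in control, 46.6 to 56.5 TPM in RhoA het) and Myod1 (1733 to 2992 TPM). The leukocyte gene Ptprc reached at most 0.742 TPM. A list of 22 dissociation stress genes, Fos among them, summed to 33270 to 59610 TPM in control. In RhoA het that sum was 29251 to 53020 TPM, lowest in replicate 5, and its part in the kinase values was not tested. Markers of other cells were present in both groups. Summed TPM ran from 4055 to 9066 in control and from 6644 to 8746 in RhoA het for 8 fibro-adipogenic markers. Among these, Pdgfra reached only 0.581 to 4.17 TPM over all libraries, so nearly all of the sum came from other members. The sums ran from 299 to 828 and from 235 to 810 for the immune markers (5 listed, 4 past the filter). They ran from 110 to 1049 and from 82.4 to 848 for 12 myofibre markers. The erythroid markers (5 listed, 4 past the filter) summed to 8.68 to 623 TPM in control and 12.1 to 1284 TPM in RhoA het. RhoA het replicate 6 stood apart: its 10 endothelial markers summed to 460 TPM against 42.3 to 122 TPM in the other 7 libraries. In the libraries numbered 5, 15 cell cycle genes summed to 504 TPM in control and 387 TPM in RhoA het, against 154 to 224 TPM elsewhere. Fragments of 4 Y-linked genes numbered 14358 in control replicate 2 and 14659 in RhoA het replicate 6, while the rest held 2 or fewer. Xist fragments numbered 5 and 7 in these libraries and 3539 to 5188 in the rest. By these counts control replicate 2 and RhoA het replicate 6 were male and the rest female.

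Clk1 was the most abundant of the 6 kinases in every library. It was listed at 167.7, 193.6, 231.1 and 188.3 TPM in control replicates 2, 5, 7 and 8, and at 242.8, 159.5, 228.2 and 232.3 TPM in RhoA het replicates 5, 6, 7 and 8. RhoA het replicates 5, 7 and 8 were close together and RhoA het replicate 6 was the lowest of all 8, so the groups overlapped. Across libraries Clk1 averaged 205.4 ± 32.2 TPM (SD, n = 8), a level above that of 95.2% of the genes tested. Clk4, its closest paralogue, was next at 53.0, 65.0, 67.6 and 58.0 TPM in control and 81.8, 60.9, 74.3 and 75.8 TPM in RhoA het. Here 3 RhoA het libraries lay above all control libraries and replicate 6 lay among them. Its mean of 67.0 ± 9.77 TPM exceeded that of 86.7% of genes tested.

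Clk3 was steadier, at 25.4, 33.7, 32.5 and 26.7 TPM in control and 30.8, 31.7, 33.4 and 29.6 TPM in RhoA het. The RhoA het values lay inside the range of the control values. Clk2 was the lowest member, at 3.32, 4.05, 4.01 and 3.41 TPM in control and 4.68, 4.19, 4.51 and 4.09 TPM in RhoA het, from only 126 to 170 fragments per library. In TPM all 4 RhoA het libraries lay above all 4 control libraries for Clk2. After TMM scaling, which corrects for differences in RNA composition, control replicate 2 (6.81 CPM) lay above RhoA het replicate 8 (6.53 CPM), so this separation depended on the scale.

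Of the cytoplasmic kinases, Srpk1 was the more abundant. It was listed at 20.4, 28.3, 24.1 and 24.3 TPM in control and at 33.8, 17.5, 31.9 and 28.9 TPM in RhoA het. The RhoA het libraries held both the highest values of all and, in replicate 6, the lowest. Srpk2 was listed at 5.22, 7.87, 7.07 and 7.68 TPM in control and at 9.60, 6.99, 7.63 and 9.62 TPM in RhoA het, and the groups overlapped. Srpk1 exceeded Srpk2 in 8 of 8 libraries, by 2.50-fold to 4.18-fold.

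**Figure D1:**
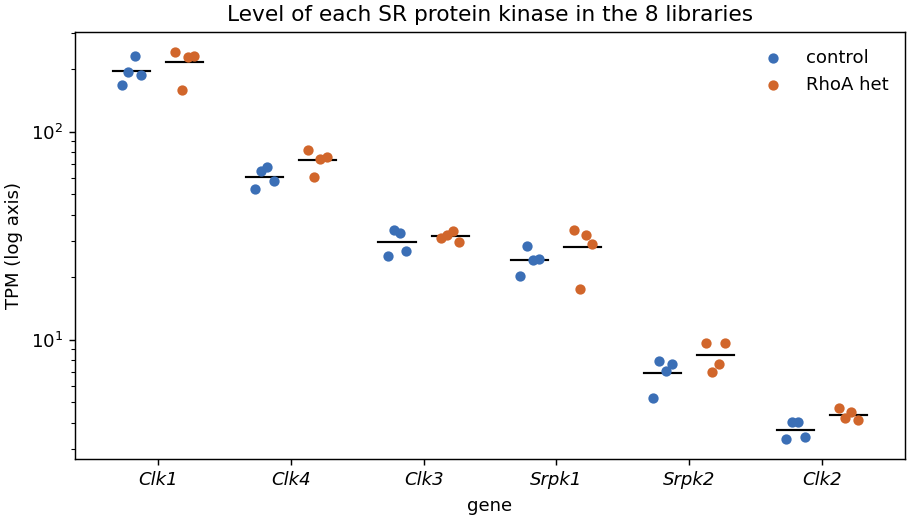
TPM (log axis) of the 6 kinases, ordered by mean level, with 1 point per library in control (blue) and RhoA het (orange) and a black line at each group mean. Levels run from about 205 TPM for Clk1 to 4.03 TPM for Clk2, and the step between genes is larger than the spread between libraries except between Clk3 and Srpk1.

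By mean TPM the order was Clk1, Clk4, Clk3, Srpk1, Srpk2 and Clk2. All 15 pairs were compared within libraries by a two-sided exact sign-flip permutation test of the difference in log2 TPM, whose smallest possible p over 8 libraries is 0.0078. The test takes the 8 libraries as independent. If libraries of the same replicate number are paired, there are fewer independent units, and the sign-flip p values here and below are too small. For 14 pairs the order held in 8 of 8 libraries with this smallest p (adjusted over the 15 pairs, exact p 0.0084). Clk1 was 3.06-fold above Clk4 (2.62 to 3.42 over libraries), 26.8-fold above Srpk2 and 50.7-fold above Clk2. Clk4 was 2.19-fold above Clk3 (1.92 to 2.66), and Srpk2 was 1.89-fold above Clk2 (1.57 to 2.35). The close neighbours were Clk3 and Srpk1, at 1.18-fold with a range of 0.912 to 1.81, and Clk3 was higher in 7 of 8 libraries (adjusted exact p 0.0469). That range covers a ratio of 1, and the values of these neighbours overlapped across libraries.

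Dividing by the length of the coding transcript in place of the merged exons, an alternative chosen after seeing the data, kept the order of the means. On that scale (CPM per kilobase of coding transcript) Clk1 stood at 288.7 ± 32.9 and Clk4 at 61.9 ± 5.66 (SD, n = 8), a 4.66-fold difference. Clk3 then exceeded Srpk1 in 8 of 8 libraries by 1.51-fold (1.16 to 2.31), with an adjusted exact permutation p of 0.0078. The size of each step between kinases thus depends on the gene model, and the order did not change between these 2 length rules.

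Within the CLK family, Clk1 made up 67.4 ± 1.55% of summed CLK TPM in control and 66.2 ± 2.65% in RhoA het (SD, n = 4 each). Clk4 made up 21.1 ± 0.729% and 22.6 ± 0.842%, Clk3 10.2 ± 0.807% and 9.85 ± 1.78%, and Clk2 1.28 ± 0.0796% and 1.36 ± 0.189%. The make-up hardly varied between libraries, and its lowest Clk1 share (62.2%) and highest Clk3 share (12.4%) were both in RhoA het replicate 6. Srpk1 made up 77.8 ± 1.51% of summed SRPK TPM in control and 76.3 ± 3.95% in RhoA het. By coding transcript length Clk1 held 70.7% to 76.5% of the CLK sum and Srpk1 75.7% to 83.9% of the SRPK sum. These shares were described without a test.

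**Figure D2:**
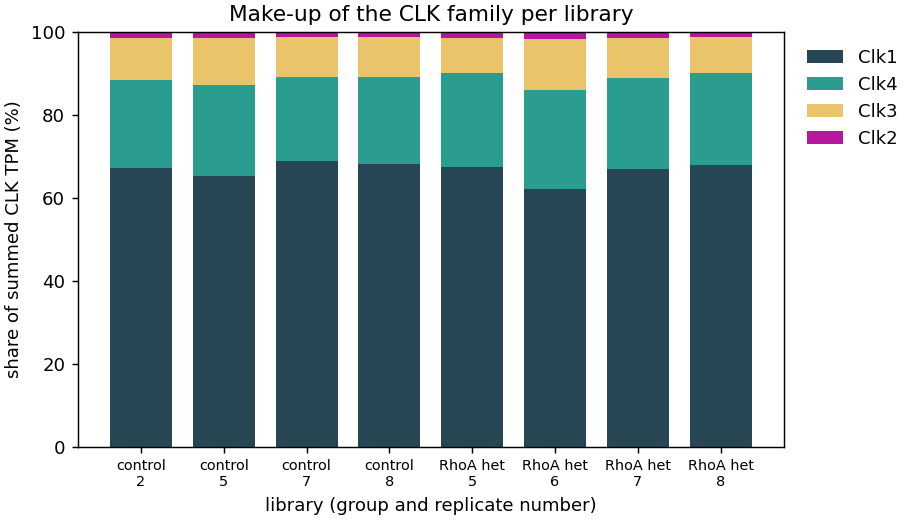
Share (%) of each CLK in the summed TPM of the 4 CLKs, 1 stacked bar per library. Clk1 takes 62.2% to 68.9% of each bar and Clk2 at most 1.64%.

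None of the 6 kinases differed between the groups past an adjusted p of 0.05 (edgeR quasi-likelihood test, Benjamini-Hochberg over 15660 genes; background share called 0%). At an unadjusted p under 0.05 there were likewise 0 of 6, where 2.38% of all genes passed, and 0 of 6 had groups that did not overlap in CPM, against 1.81% of all genes. In TPM the groups did not overlap for 1 of 6, Clk2, against 1.51% of all genes. DESeq2 and limma also called 0 of the 6. All 6 estimates were above 0, although those of Clk1 and Clk3 changed sign when some libraries were left out, and every 95% interval included 0. Their median log2 fold change was 0.14 beside -0.00071 over all genes tested.

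The mean level of Clk4 in CPM was 113.0 ± 6.40 for control and 128.2 ± 9.40 for RhoA het, with SD over n = 4 libraries in each. This gave a log2 fold change of 0.18 (SE 0.11, 95% interval -0.055 to 0.42; edgeR p 0.118, adjusted p 1), or 1.13-fold. Srpk2 had the largest estimate in this fit, though not in every other fit, at 30.8 ± 2.96 against 35.5 ± 4.44 CPM. Its log2 fold change was 0.21 (interval -0.088 to 0.50, edgeR p 0.148). Neither had an unadjusted p under 0.05, and their two-sided exact permutation p values were 0.0857 and 0.143. Clk2 followed at 6.27 ± 0.411 against 7.02 ± 0.327 CPM (log2 fold change 0.16, interval -0.20 to 0.52; edgeR p 0.343), with an exact permutation p of 0.0571 where 0.0286 is the smallest possible.

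The means of Srpk1 were 95.9 ± 4.39 CPM for control and 104.3 ± 23.2 CPM for RhoA het, a log2 fold change of 0.12 (interval -0.25 to 0.50; edgeR p 0.485). The wide RhoA het spread came from replicate 6 at 70.5 CPM, beside 108 to 120 CPM in the other RhoA het libraries. Without that library the log2 fold change of Srpk1 was 0.27 (edgeR p 0.0415, adjusted p 1), while without RhoA het replicate 5 or 7 it was 0.045 or 0.047 (edgeR p 0.809 and 0.806). RhoA het replicate 6 also had the lowest Clk1 (422 CPM, beside 558 to 569 CPM in the other RhoA het libraries). It had the highest endothelial and erythroid sums given above and was the only RhoA het library with Y-linked fragments. The part of other cells or of sex in these values was not tested. In bulk RNA, fewer cells of a type and less RNA per cell cannot be told apart.

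The means of Clk1 were 508 ± 52.1 CPM for control and 529 ± 71.7 CPM for RhoA het, a log2 fold change of 0.058 (interval -0.26 to 0.38; edgeR p 0.696). It moved to 0.15 without RhoA het replicate 6 and to -0.019 without control replicate 5. Clk3 was nearly level at 79.7 ± 4.20 and 80.6 ± 6.38 CPM, with a log2 fold change of 0.016 (interval -0.22 to 0.25; edgeR p 0.883), and its sign changed with the choice of libraries. Taken singly, the 95% intervals of the 6 kinases lay between 0.832-fold and 1.44-fold. They do not exclude changes as large as 1.44-fold for Clk2 or 1.19-fold for Clk3.

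**Figure D3:**
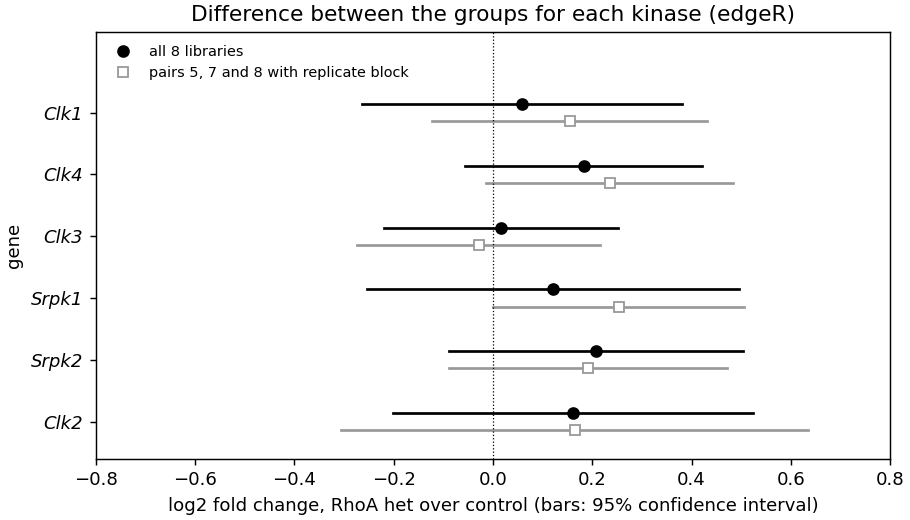
Log2 fold change of RhoA het over control for each kinase (points) with 95% confidence intervals (bars) from edgeR, over all 8 libraries (black) and over the numbers 5, 7 and 8 with a replicate block (grey). All black bars cross 0. The grey bar of Srpk1 starts just above 0, at 0.0010.

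Numbers 5, 7 and 8 occur in both groups, and the deviations of same-numbered libraries from their group means were positively correlated. The kinases were therefore also read within these 3 pairs. They leave out control replicate 2 and RhoA het replicate 6, the libraries with Y-linked fragments. Clk2, Clk4, Srpk1 and Srpk2 were each higher in RhoA het in 3 of 3 pairs. The share of all genes higher in 3 of 3 pairs was not computed, so this count has no background beside it. The ratios ran from 1.10 to 1.19 for Clk2, from 1.10 to 1.29 for Clk4, from 1.09 to 1.33 for Srpk1 and from 1.08 to 1.26 for Srpk2. Clk1 was higher in pairs 5 (1.29-fold) and 8 (1.13-fold) and lay at 0.990-fold in pair 7, and Clk3 ran from 0.939-fold to 1.03-fold. In a fit of these 6 libraries blocked by replicate number, Srpk1 had a log2 fold change of 0.25 (interval 0.0010 to 0.51; edgeR p 0.0492, adjusted p 0.931) and Clk4 one of 0.23 (interval -0.015 to 0.48; edgeR p 0.0626, adjusted p 0.931). No kinase passed the threshold with the block, which called 2 of 15714 genes in all. Over all genes, 827 of 15714 had an unadjusted p under 0.05 with the block (edgeR). In the same libraries without the block 278 did, and Srpk1 did not (edgeR p 0.0727).

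**Figure D4:**
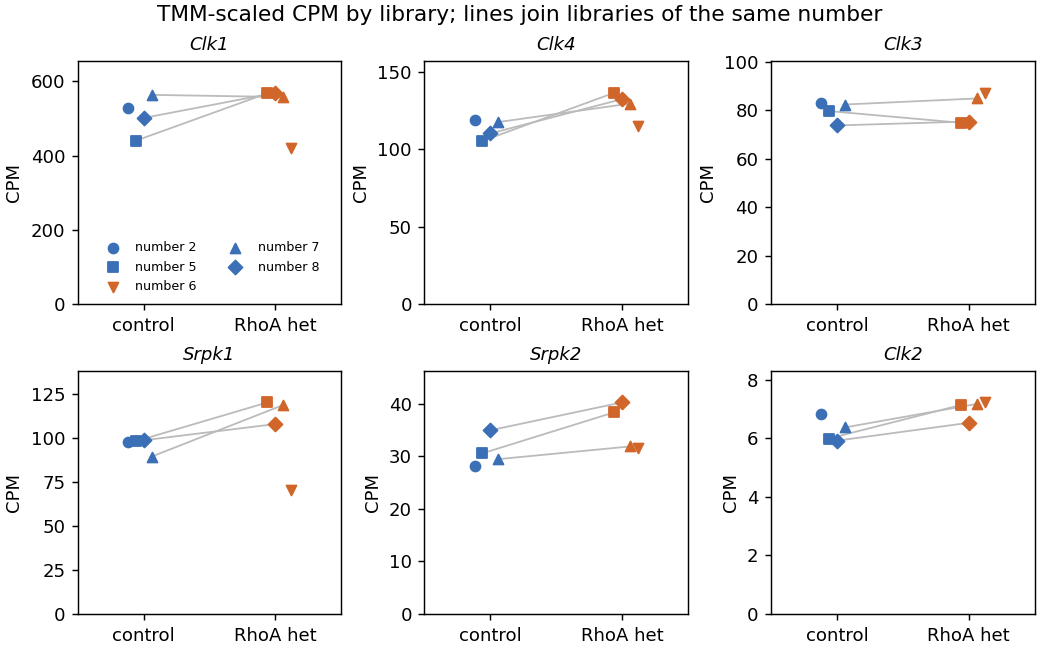
TMM-scaled CPM (linear axes from 0) of each kinase in control (blue) and RhoA het (orange), with marker shapes for the replicate number and grey lines joining libraries of the same number. The lines of Clk4, Srpk1, Srpk2 and Clk2 all slope upward to the right, and the unpaired RhoA het replicate 6 lies lowest for Clk1 and Srpk1. How often the lines of other genes do the same was not computed.

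The kinases varied little between libraries. The biological coefficient of variation that edgeR fitted had a median of 17.2% over the 6 kinases and of 27.7% over all genes tested, a value that in general falls with abundance. Clk3 and Clk4 were the steadiest, with only 0.830% and 0.811% of genes below them, and Clk2 the least steady in rank, with 31.4% below it. For Clk2 the spread in CPM over all 8 libraries (7.90%) was about the size of the counting error at its mean of 143 fragments (8.36%). For Srpk1 the spread was 16.1% against a counting error of 2.15%, and its CPM differed by 1.70-fold between the highest and lowest library. For Clk3 the CPM differed by at most 1.18-fold.

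Whether the kinases varied together was examined over the 8 libraries in log2 CPM, although libraries of the same number are not fully independent. None of the 15 pairs passed an adjusted permutation p of 0.05 (lowest 0.229 for Pearson's r and 0.231 for Spearman's rho). The closest pair by both measures was Clk1 and Clk4, with Pearson's r of 0.757 (exact permutation p 0.0320) and Spearman's rho of 0.833 (exact permutation p 0.0154). Without the 2 libraries farthest from the median of Clk1, control replicate 5 and RhoA het replicate 6, r was 0.816. Clk1 and Srpk1 had r of 0.713 (exact permutation p 0.0459), which fell to 0.389 without the same libraries and so rested on them. Clk3 and Srpk2 had a negative r of -0.73 (exact permutation p 0.0440) and -0.65 without control replicate 8 and RhoA het replicate 5.

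The genes whose log2 CPM over the 8 libraries most resembled each kinase were sought among 13465 other named genes with a mean of at least 1 CPM. They were 4632427E13Rik and Gm43980 for Clk1 (r of 0.971 and 0.967), B830012L14Rik and Zfp654 for Clk2 (0.948 and 0.947), and Acin1 and Ercc3 for Clk3 (0.987 and 0.957). For Clk4 they were Pole2 and E230020A03Rik (0.952 and 0.935), for Srpk1 Ahctf1 and Rasa2 (0.972 and 0.964), and for Srpk2 Raver2 and Acp2 (0.949 and 0.949). No kinase of the 6 was among the 2 nearest genes of another. Each r rests on 8 libraries that share scaling and library preparation, and the highest of many such values is large by selection, so they are given as a description.

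The substrates of these kinases were followed through 13 genes of SR proteins and their relatives Tra2a and Tra2b. None of the 13 was called in either direction (edgeR, adjusted p 1 for each, and 0 at an unadjusted p under 0.05). The intervals do not exclude changes, as that of Srsf2 ran from 0.742-fold to 1.53-fold. Estimates were lower in RhoA het for 10 and higher for 3, with a median log2 fold change of -0.13. In the 6 libraries blocked by replicate number, 8 were lower and 5 higher, with a median of -0.016. There Srsf2 had an unadjusted p under 0.05 (log2 fold change 0.39, edgeR p 0.0112, adjusted p 0.755), as did 827 of all 15714 genes. In the same libraries without the block Srsf2 had a log2 fold change of 0.38 (edgeR p 0.0425, adjusted p 0.99991), where 278 genes had an unadjusted p under 0.05. By the smallest p, Srsf9 (25.8 ± 4.42 CPM for control and 21.1 ± 3.49 CPM for RhoA het, log2 fold change -0.29, SE 0.17) and Srsf3 (-0.23, SE 0.19) led the lower estimates. Srsf4 (0.097, SE 0.17) and Srsf5 (0.089, SE 0.20) led the higher ones. The summed TPM of the 13 genes ran from 2549 to 3476 in control and from 2508 to 3289 in RhoA het, so the groups overlapped.

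A further 21 genes that act beside the kinases were examined, among them related kinases that act on splicing proteins (such as Srpk3, Prpf4b and the Dyrk genes), Akt1 and Akt2, Top1, the phosphatase subunits that remove the phosphate, the nuclear import receptor Tnpo3 and the chaperones known to hold SRPKs in the cytoplasm. None of the 21 was called (edgeR, adjusted p 1 for each, and 0 at an unadjusted p under 0.05), with 9 estimates higher, 12 lower and a median log2 fold change of -0.032. With the replicate block 13 were higher and 8 lower, the median was 0.057, and again 0 had an unadjusted p under 0.05 (edgeR). Among the higher estimates was Srpk3, the muscle-restricted SRPK, which was barely detected at 0.948 ± 0.456 CPM for control and 1.51 ± 1.22 CPM for RhoA het (log2 fold change 0.66, SE 0.56). Akt2 (-0.14, SE 0.13) and Ppp1ca, a catalytic subunit of protein phosphatase 1 (-0.14, SE 0.16), had the smallest p among the lower estimates. The importer Tnpo3 was close to level, at 82.4 ± 9.17 and 80.0 ± 2.80 CPM.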

How the data were processed

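The authors deposited 1 table of counts and 1 table of TPM per gene for 8 libraries. Per the file headers, featureCounts 1.6.4 counted read pairs over the exons of GENCODE mouse release 34 on mm39, from STAR alignments, with no strand or multi-mapping option; the submitters' processing notes also name FastQC, cutadapt and DESeq2. The header named 10 alignment files, of which 8 are in the table. The deposited TPM values equalled counts per gene length scaled per library when recomputed. Per the labels' protocols, RNA was extracted with Trizol and amplified by template switching. Symbols came from GENCODE release 21, which named 51884 of 57180 genes.

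Counts were filtered with filterByExpr, scaled by TMM and tested with edgeR 4.0.16 (quasi-likelihood, R 4.3.3) over all 8 libraries without covariates, with Benjamini-Hochberg adjustment over all 15660 genes tested and a threshold of 0.05. SE and intervals came from the F statistic. Log2 CPM used a prior count of 2. Exact permutation tests were two-sided and used all 70 assignments of the groups, all 256 sign flips or all 40320 pairings. Alternatives used DESeq2 1.42.0 and limma 3.58.1, other scalings and filters, log2(TPM + 1) and log2(TPM + 0.1), and fits without each library. The scripts were tested on simulated data.

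Replicate numbers 5, 7 and 8 occur in both groups. Deviations of same-numbered libraries from their group means correlated at 0.544, 0.231 and 0.488, so the numbers were taken to pair the libraries, although the labels do not say what they stand for. Besides the 6 kinases, the text names per list the 2 genes of lowest p on each side, and per kinase the 2 genes with the highest r; 1 gene that this rule picks is not reported here, Tnpo3 was added after its values were seen, and other genes serve as checks. The members and lists were chosen with earlier results of these data known. Splicing itself was not analysed here.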

Additional observations from a re-analysis of the deposited data

Results flagged for a closer look

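Each kinase was examined in both groups for a library at the end of its group that lay far from the other 3 by Dixon's ratio, which made 12 groups of 4. There were 3 such libraries, where chance gives about 0.6. Clk1 in RhoA het replicate 6 had a log2 CPM of 8.72, with the nearest of the other RhoA het libraries at 9.12. This is the library with the high endothelial and erythroid sums and the only RhoA het library with Y-linked fragments. The log2 fold change of Clk1 without it was 0.15. Clk2 in RhoA het replicate 8 had a log2 CPM of 2.73, with the nearest library at 2.85; it rests on 127 fragments. Srpk1 in control replicate 7 had a log2 CPM of 6.48, with the nearest at 6.61. The other control libraries lay within 6.61 to 6.63, so this gap is small in size.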

How the results depend on the processing

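Each of the 6 fold changes was recomputed under 11 other settings and without each of the 8 libraries in turn, 114 values in all. Of these, 108 kept their direction, 6 reversed and 0 passed the threshold (lowest adjusted p 0.854, edgeR without a filter on low counts). Unadjusted p was under 0.05 in 3 of them: Srpk1 without RhoA het replicate 6, Srpk1 with the replicate block (p 0.0492, edgeR) and Clk4 with a random effect for the replicate number (p 0.0369, limma-voom). Over all genes, 314 of 16035, 827 of 15714 and 839 of 15660 had an unadjusted p under 0.05 in these fits, in that order. Reversals concerned Clk3, at -0.029 with the replicate block and -0.028 in the same 6 libraries without the block, and values without 1 library, which ran from -0.026 to 0.048 for Clk3 and from -0.019 to 0.15 for Clk1; the cause was not tested. The other ranges without 1 library were 0.13 to 0.20 for Clk2, 0.14 to 0.23 for Clk4, 0.045 to 0.27 for Srpk1 and 0.14 to 0.27 for Srpk2. The replicate block changed the count over all genes from 0 to 2 and no other call. The median over all genes was 0.068 in limma on log2(TPM + 1) and 0.086 on log2(TPM + 0.1), beside -0.00071 in edgeR; scale and test both differ. The list of 21 genes beside the kinases had a median of -0.032 over all libraries, 0.057 with the replicate block and 0.049 when those 6 libraries were fitted unblocked. The order of the kinases by mean TPM was the same without any 1 library. Depth limits Clk2 most, at 126 to 170 fragments.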
